A study of Mus musculus with 32 samples.

Results

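Gap junctions are plaques of channels that pass ions and small molecules from cell to cell. Each channel is built from connexins, and connexins of 1 cell pair with those of its neighbour, so the set of connexins in a cell type limits which neighbours it can couple to. In the brain, astrocytes are joined to each other and to oligodendrocytes in this way, while arterial endothelium and the contractile cells around it use connexins of their own. Pannexins have a similar membrane topology but form channels to the outside of the cell, through which ATP is released.

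The 8 genes described here are the connexins Gja1, Gja4, Gja5, Gjb1, Gjb2, Gjb6 and Gjc3 and the pannexin Panx1. They were taken by symbol from the 27998 genes of a single-cell count matrix of the mouse median eminence, the part of the basal hypothalamus where tanycytes, capillaries and neurosecretory endings meet. All 8 were found in the matrix, which also held 15 other connexin and pannexin genes.

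The tissue came from male C57B/L6 mice aged 40 to 47 days. One pool of 5 animals was fasted overnight and the other pool of 5 was fasted overnight and then given normal chow for 1 h. Living single cells were sorted after papain digestion, and each pool was spread over 2 droplet libraries that read the 3′ ends of transcripts. The matrix held 5982 cells and 29288898 unique molecular identifiers (UMIs, 1 for each captured RNA molecule). A number from 1 to 4 closes each cell barcode, but the labels tie none of these to a feeding state. The cells were therefore treated as 1 sample, fasted and refed animals were not compared, and no test was made. Values at the 4 barcode numbers are given as a description of spread.

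Levels are counts per 1000000 UMIs of a cell type (CPM) with an exact Poisson 95% interval, and shares of cells with a UMI have an exact Clopper-Pearson interval. Both cover counting error only. Since each molecule is read at its 3′ end, a gene is compared with itself across cell types and not with other genes. The barcode numbers held 1359 to 1642 cells with median depths of 3518 to 4057 UMIs per cell, and 21 of 5961 barcode sequences occurred under more than 1 number.

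Cell types were set by marker genes after clustering without any connexin or pannexin gene, so that no member shaped its own cell type. The 25 clusters gave 13 types: 1469 tanycyte-like, 1384 astrocyte-like, 655 mature oligodendrocyte-like (MOL-like), 533 neuron-like, 405 microglia-like, 304 oligodendrocyte precursor-like (OPC-like), 268 vascular and leptomeningeal cell-like (VLMC-like), 201 ependymocyte-like, 156 macrophage-like, 138 differentiating precursor-like (diffOPC-like), 84 endothelial-like, 83 pars tuberalis-like and 78 mural-like cells. The summed level of the 8 astrocyte markers was 16061 CPM in astrocyte-like cells, and that of the 8 MOL markers was 16545 CPM in MOL-like cells. The same lists gave the names, so these sums describe the types and are no check of them. Clusters 0, 2 and 24 stayed unnamed.

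The connexin members share a stretch of coding sequence that the rule did not use. The bases printed here code for part of the first extracellular loop, which takes part in the docking of connexins of neighbouring cells. Which partners can couple was not read from these bases. They mark the first place in the coding sequence where 3 cysteine codons (TGT or TGC, in capitals) stand in one frame with 6 codons between the first pair and 3 codons between the next pair. Sequences are from GENCODE transcripts on GRCm38 and run 5′ to 3′ on the coding strand. Each stretch is 36 bases long and lies within 1 coding exon.
Gja1, chr10:56387706-56387741, plus strand: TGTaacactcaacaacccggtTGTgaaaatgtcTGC
Gja4, chr4:127312774-127312809, minus strand: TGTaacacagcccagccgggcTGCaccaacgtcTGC
Gja5, chr3:97050788-97050823, plus strand: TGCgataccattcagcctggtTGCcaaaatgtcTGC
Gjb1, chrX:101384324-101384359, plus strand: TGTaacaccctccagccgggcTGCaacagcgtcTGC
Gjb2, chr14:57100558-57100593, minus strand: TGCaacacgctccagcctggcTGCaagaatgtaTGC
Gjb6, chr14:57124611-57124646, minus strand: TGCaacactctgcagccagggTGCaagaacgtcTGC
Gjc3, chr5:137957797-137957832, minus strand: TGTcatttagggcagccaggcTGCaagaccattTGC

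The pattern occurred once in each of the 7 connexins and nowhere in the coding sequence of Panx1. Of the 36 bases, Gjb2 and Gjb6 shared 30, and Gja4 and Gjb1 shared 31. Gjc3 stood furthest from the others: it shared 18 bases with Gja1 and 24 at most, with Gja4 and with Gjb6. The pattern starts at codon 53 in Gjb1, Gjb2 and Gjb6, at codon 54 in Gja1, Gja4 and Gja5, and at codon 64 in Gjc3.

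Gjb2 and Gjb6 are neighbours on chromosome 14, both on the minus strand, with 18600 bases between their annotated spans (57098600 to 57104702 and 57123303 to 57133611). Gja1 lies on chromosome 10 (56377330 to 56402513) and Gjb1 on the X chromosome (101376378 to 101385629), both on the plus strand. Gja4 lies on chromosome 4 (127311421 to 127314039), Gjc3 on chromosome 5 (137953461 to 137963098) and Panx1 on chromosome 9 (15002128 to 15045478), all on the minus strand. None of these 7 genes overlaps another annotated gene. The annotated span of Gja5 on chromosome 3 (96904693 to 97077416, plus strand) overlaps other genes on the opposite strand, and the few Gja5 UMIs are uncertain for that reason too.

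**Figure D1:**
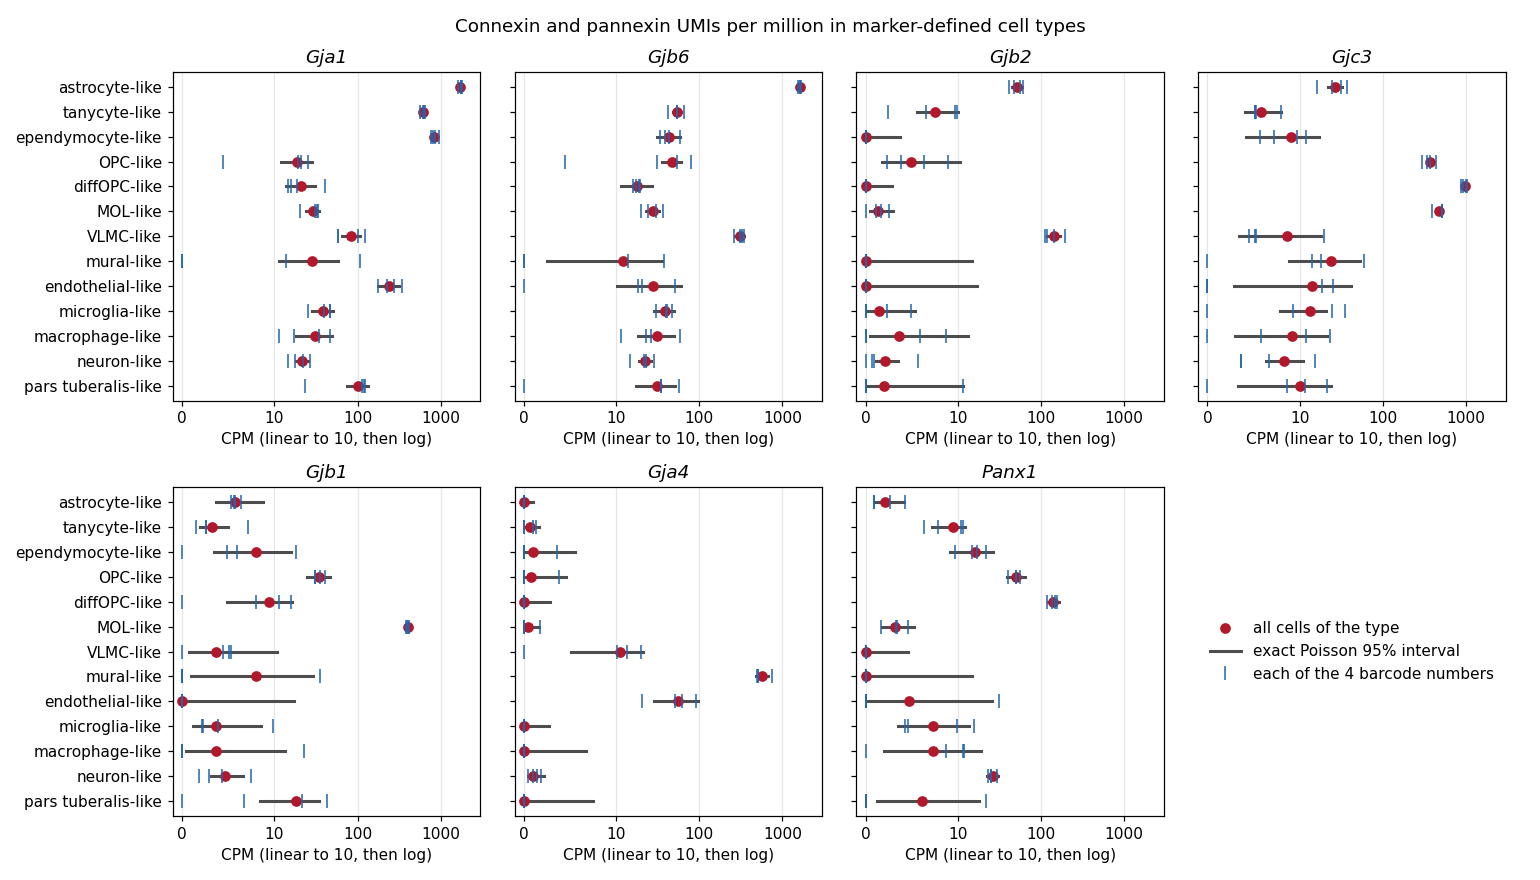
Levels of 7 members in the 13 marker-defined cell types, as CPM on an axis that is linear to 10 and logarithmic above. Red circles give all cells of a type, grey bars the exact Poisson 95% interval and blue ticks each of the 4 barcode numbers. Gja1 and Gjb6 were highest in astrocyte-like cells (1729 and 1611 CPM), Gjb2 in VLMC-like cells (142 CPM), Gjc3 and Panx1 in diffOPC-like cells (960 and 141 CPM), Gjb1 in MOL-like cells (400 CPM) and Gja4 in mural-like cells (573 CPM).

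Astrocyte-like cells carried Gja1 and Gjb6 together, and tanycyte-like and ependymocyte-like cells carried Gja1 with little Gjb6. VLMC-like cells as a type carried Gjb6 and Gjb2, with Gja1 low against its level in astrocyte-like cells. Of the VLMC-like cells, 64.6% had a UMI of neither Gjb2 nor Gjb6. By level in a type, the members fell into 3 patterns among the cells that line the ventricle or surround the tissue and its vessels.

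Gja1 encodes the most widespread connexin of the body and the main one of astrocytes. Its level in astrocyte-like cells was 1729 CPM (1688 to 1772), and a Gja1 UMI was seen in 97.6% of them. At barcode numbers 1 to 4 the level was 1794, 1739, 1741 and 1636 CPM. Ependymocyte-like cells, the ciliated lining of the ventricle, came next at 826 CPM (770 to 884), with 850, 949, 814 and 756 CPM at the 4 numbers. Tanycyte-like cells, the radial glia-like cells of the ventricle floor, followed at 616 CPM (597 to 636), with 644, 570, 629 and 616 CPM. Neither the intervals nor the values by barcode number overlapped between any neighbours in this order, which continued with endothelial-like cells at 237 CPM (177 to 312) and pars tuberalis-like cells at 102 CPM (75.6 to 134). The tanycyte-like level rests in large part on 1 cluster, cluster 14, whose 340 of 1469 cells held 1968 of the 3860 Gja1 UMIs: without it, a setting chosen after its values were seen, the level was 396 CPM (378 to 414), still between ependymocyte-like and endothelial-like cells.

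Astrocyte-like cells held 53.9% of all 12203 Gja1 UMIs and tanycyte-like cells 31.6%. Because cells of each type differ in depth, shares were also taken after thinning each cell to 1000 UMIs: a Gja1 UMI was then left in 79.8% of astrocyte-like, 54.2% of ependymocyte-like, 38.7% of tanycyte-like and 20.2% of endothelial-like cells, the same order as the levels. In microglia-like cells, which are not known to carry it, Gja1 was at 38.1 CPM (28.5 to 50.02) and in 8.64% of cells at a median depth of 3093 UMIs, against 2660.5 UMIs in astrocyte-like cells. Shares and levels near those values are read as background.

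Gjb6 encodes the second connexin of mature astrocytes. It reached 1611 CPM (1571 to 1652) in astrocyte-like cells, which held 83.5% of its 7340 UMIs, and 97.4% of these cells had a UMI. The barcode numbers gave 1661, 1615, 1644 and 1525 CPM. The next type was VLMC-like at 308 CPM (271 to 348), the fibroblast-like cells of vessels and meninges. Its values of 342, 260, 308 and 323 CPM all lay above those of tanycyte-like cells, at 54.6, 42.0, 53.8 and 66.3 CPM. Below VLMC-like cells the order was not resolved: tanycyte-like cells at 54.3 CPM (48.7 to 60.4), OPC-like cells at 46.4 CPM (35.2 to 60.1) and ependymocyte-like cells at 43.1 CPM (31.2 to 58.1) had overlapping intervals, and microglia-like cells were at 38.1 CPM (28.5 to 50.02). Without cluster 14, which held 219 of their 340 Gjb6 UMIs, tanycyte-like cells were at 25.3 CPM (21.0 to 30.3). In OPC-like cells a single cell held 14 of the 57 Gjb6 UMIs, and the 6 cells called doublets held 26. Without those 6 cells the OPC-like level was 25.9 CPM (17.6 to 36.8), and without 6 called doublets the microglia-like level was 32.6 CPM (23.6 to 43.8).

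Both genes were seen in the same astrocyte-like cells. A UMI of each was present in 95.1% of them (93.8 to 96.2), Gja1 alone in 2.53% and Gjb6 alone in 2.31%, and 1 of 1384 cells had neither. Tanycyte-like cells had Gja1 alone in 62.5% and both in 14.8% (12.995 to 16.7). Ependymocyte-like cells had Gja1 alone in 77.1% and both in 16.4% (11.6 to 22.3).

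The balance of both genes gave a further description of the types. Of all Gja1 and Gjb6 UMIs together, Gja1 made up 51.8% (50.9 to 52.6) in astrocyte-like cells. The share was 50% (40.03 to 59.97) in microglia-like, 50% (32.4 to 67.6) in macrophage-like, 49.0% (43.2 to 54.8) in neuron-like and 51.4% (45.0 to 57.7) in MOL-like cells, and each of these intervals held the astrocyte value. It was 95.03% (93.4 to 96.4) in ependymocyte-like, 91.9% (91.0 to 92.7) in tanycyte-like, 89.5% (78.5 to 96.0) in endothelial-like and 76.9% (64.8 to 86.5) in pars tuberalis-like cells. In VLMC-like cells it was 21.4% (17.0 to 26.3) and in OPC-like cells 28.8% (19.2 to 39.95), but the single OPC-like cell named above weighs on the latter.

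**Figure D2:**
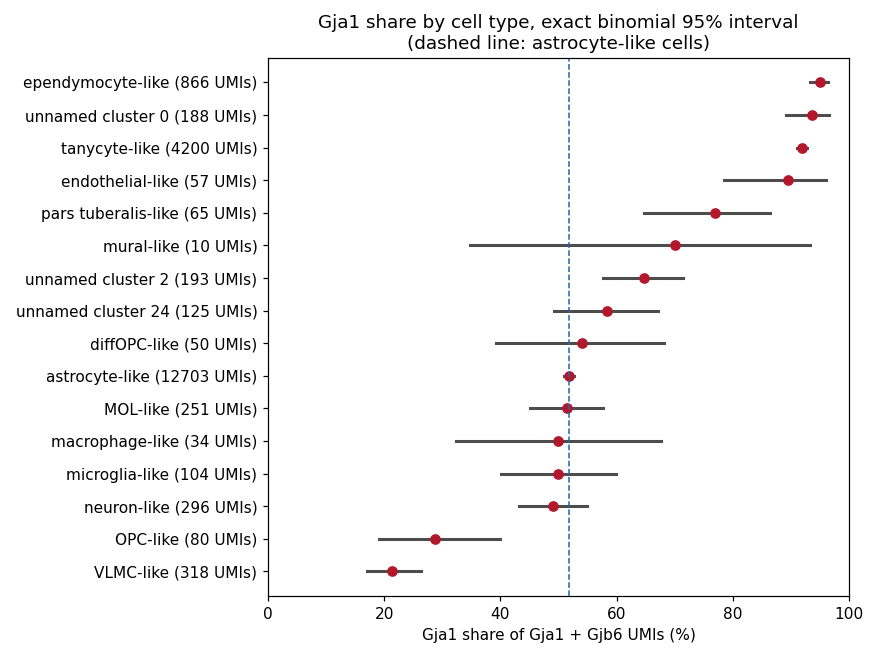
Gja1 as a percentage of Gja1 plus Gjb6 UMIs in each cell type and unnamed cluster, with exact binomial 95% intervals and the number of UMIs behind each point. The dashed line marks the 51.8% of astrocyte-like cells. Microglia-like, macrophage-like, neuron-like, MOL-like and diffOPC-like cells sit on it within counting error. So do mural-like cells at 70% (34.8 to 93.3) and unnamed cluster 24 at 58.4% (49.2 to 67.1). Ependymocyte-like and tanycyte-like cells lie above it and VLMC-like cells below.

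The level of astrocyte markers is given beside these values. The 8 astrocyte markers summed to 402 CPM in ependymocyte-like, 405 CPM in endothelial-like, 439 CPM in VLMC-like, 505 CPM in tanycyte-like and 463 CPM in OPC-like cells, and to 315 CPM in microglia-like and 330 CPM in MOL-like cells. The sum was lower in mural-like cells at 140 CPM, diffOPC-like at 214 CPM, neuron-like at 236 CPM and macrophage-like at 293 CPM, and was 320 CPM in pars tuberalis-like cells. The part of astrocyte RNA in the Gja1 and Gjb6 levels of these types was not tested.

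Within the tanycyte-like cells Gja1 differed between clusters. Cluster 14, led by Gfap, an intermediate filament gene of astrocytes and of some tanycytes, was at 1325 CPM (1267 to 1385), with 1382, 1285, 1352 and 1273 CPM at the 4 barcode numbers. Cluster 15, led by Mia and the tanycyte markers Crym and Frzb, was at 518 CPM (488 to 550), and cluster 7, led by Rax and Crym, at 319 CPM (296 to 344). Cluster 18, led by Scn7a and Col25a1, was lowest at 228 CPM (188 to 274), with 206, 268, 227 and 197 CPM. No barcode number of 1 cluster reached those of the next in this order.

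Gjb6 was at 147 CPM (129 to 168) in the Gfap-led cluster 14, and at 25.8 CPM (19.5 to 33.4), 22.2 CPM (16.2 to 29.6) and 36.2 CPM (21.5 to 57.3) in clusters 7, 15 and 18. The astrocyte marker sum was 901 CPM in cluster 14, against 427, 371 and 232 CPM in clusters 7, 15 and 18, and the tanycyte marker sum was 1666 CPM, against 2365, 3634 and 3230 CPM. For cluster 14 the list next to tanycyte (score 0.394) was ependymocyte (0.260), a lead just past the naming rule. Gfap-led clusters were tanycyte-like at Leiden resolution 0.5 (334 cells) and after the filter on cells (373 cells). They stayed unnamed at resolution 2 (206 cells) and with doublets left out (361 cells). Smaller ones of 65 and 66 cells, at resolution 2 and with family genes kept, were astrocyte-like. The part of astrocyte or ependymocyte RNA, or of mixed droplets, in the level of cluster 14 was not tested. No called doublet was among the tanycyte-like cells. The 2 astrocyte-like clusters differed little: Gja1 was at 1714 CPM (1669 to 1760) in cluster 1 and 1813 CPM (1706 to 1926) in cluster 6, and Gjb6 at 1628 and 1522 CPM.

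**Figure D3:**
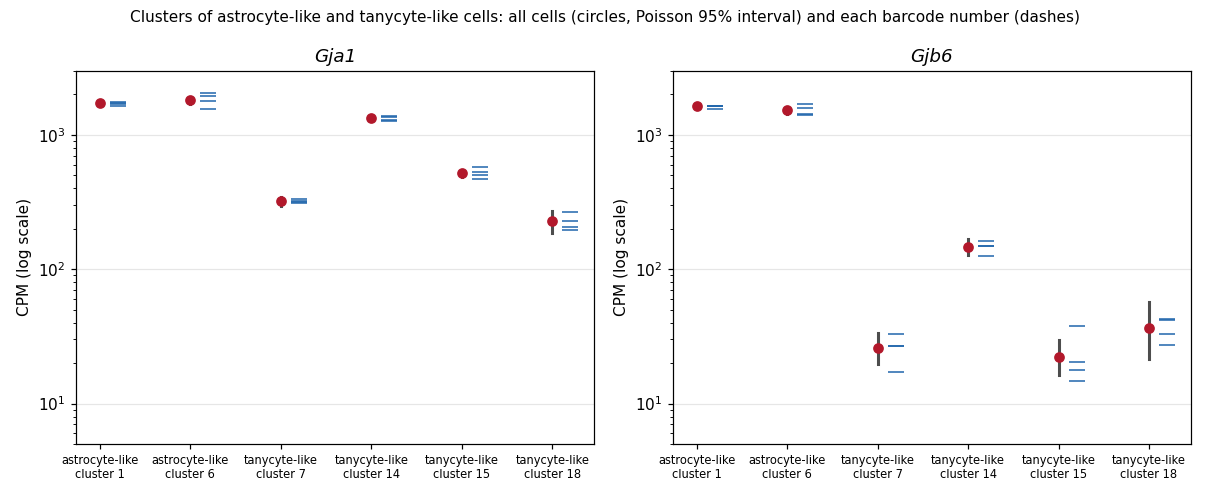
Gja1 and Gjb6 in the clusters of astrocyte-like and tanycyte-like cells, as CPM on a log scale. Circles give all cells of a cluster with the Poisson 95% interval, dashes each barcode number. Gja1 spans 228 to 1325 CPM over the tanycyte-like clusters, and Gjb6 is at 147 CPM in cluster 14 and at 22.2 to 36.2 CPM in the other tanycyte-like clusters.

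Cluster 0, 164 unnamed cells led by Fxyd1 and Dio3 with a tanycyte marker sum of 991 CPM, had Gja1 at 277 CPM (238 to 321) and Gjb6 at 18.9 CPM (9.76 to 33.0). Cluster 2, 36 unnamed cells of which 12 were called doublets, had Gja1 at 1016 CPM (846 to 1210) and Gjb6 at 553 CPM (429 to 701), with astrocyte and tanycyte marker sums of 7086 and 1398 CPM.

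Gjb2 encodes a connexin of astrocytes and of the meninges, best known from inherited deafness. Of the named types, VLMC-like cells had its highest level, 142 CPM (117 to 170), with 194, 113, 143 and 116 CPM at the barcode numbers. Astrocyte-like cells followed at 51.8 CPM (44.8 to 59.6), with 47.8, 55.3, 41.2 and 61.0 CPM, so all 4 VLMC-like values lay above all 4 astrocyte-like ones. Tanycyte-like cells were at 7.504 CPM (5.51 to 9.98), and microglia-like cells at 1.47 CPM (0.178 to 5.30). No Gjb2 UMI was found in the 201 ependymocyte-like cells, where the 3 counts that a count of 0 is taken to allow would be 3.01 CPM and the exact Poisson upper limit is 3.70 CPM. Astrocyte-like cells rarely held more than 1 Gjb2 UMI (18 of 1384 cells, 1.30%), whereas 28 of 268 VLMC-like cells (10.4%) did, with up to 7 UMIs in a cell.

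In VLMC-like cells Gjb2 went with Gjb6. A Gjb2 UMI was seen in 49 of the 268 cells (18.3%, 13.8 to 23.4), at 21.9%, 18.3%, 16.7% and 16.4% of the cells at barcode numbers 1 to 4. Of these 49 cells, 41 also had a Gjb6 UMI (83.7%), against 46 of the 219 cells without Gjb2 (21.0%). Gjb6 was at 1024 CPM (876 to 1190) in the cells with Gjb2 and 124 CPM (98.1 to 154) in those without, and Gja1 was at 169 CPM (112 to 244) and 61.9 CPM (44.2 to 84.3). The astrocyte marker sum was 470 CPM (372 to 587) with Gjb2 and 432 CPM (382 to 485) without, and median depths were 3043 and 2882 UMIs. Split by a Gjb6 UMI instead, the astrocyte marker sum was 886 CPM (780 to 1004) in the 87 cells with Gjb6 and 205 CPM (168 to 247) in the 181 without, and its part in the Gjb6 level was not tested.

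Since cells were split here by a member's own UMIs, the following are descriptions of a chosen set, added after its values were seen. Of 2683 genes with at least 50 UMIs in VLMC-like cells, 20 were at least 4-fold higher in the cells with Gjb2. Outside the family, the 10 with the largest ratio were Rbp4, Slc6a20a, Vtn, Slc7a11, Igf2, Ptgds, Wnt6, Clec3b, Slc6a13 and Fmod. Ptgds, which encodes the prostaglandin D synthase abundant in leptomeninges, was at 32051 CPM (31195 to 32924) with Gjb2 and 1320 CPM (1233 to 1411) without. Slc6a13, a GABA and taurine transporter gene, was at 964 CPM (821 to 1126) and 71.2 CPM (52.1 to 94.9), in 53.1% and 10.5% of cells. Vtn, which encodes vitronectin, was at 4357 CPM (4045 to 4686) and 132 CPM (105 to 163). It made up 723 of the 727 UMIs of the mural marker list in the cells with Gjb2. The endothelial marker sum was 2031 CPM (1820 to 2259) with Gjb2 and 511 CPM (457 to 569) without. Over all VLMC-like cells Itm2a gave 714 of the 821 CPM of that sum. The VLMC marker sum was lower with Gjb2, at 23940 CPM (23201 to 24696) against 31808 CPM (31374 to 32245). Not every cell with Gjb2 carried the genes with the largest ratio. Rbp4, the retinol-binding protein gene that led them, came from 7 of the 49 cells.

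**Figure D4:**
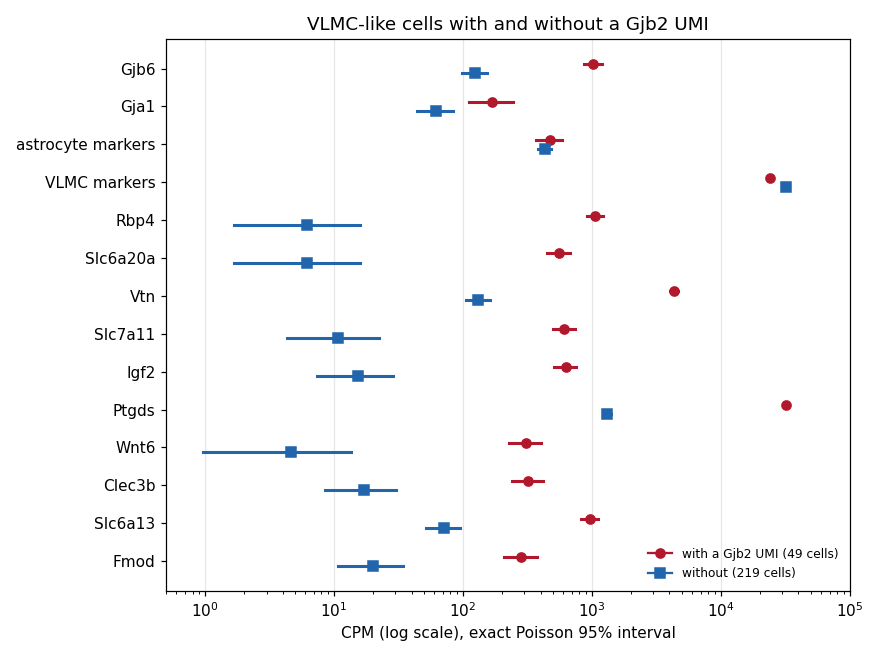
Levels in VLMC-like cells with a Gjb2 UMI (49 cells, red circles) and without (219 cells, blue squares), as CPM on a log scale with exact Poisson 95% intervals. Gjb6 lies at 1024 against 124 CPM, while the astrocyte marker sums of 470 and 432 CPM overlap; the 10 genes below were picked for the size of their ratio.

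The small unnamed cluster 24, 21 cells led by Mgp, Fxyd5, Igfbp6 and Ccn3 with a VLMC marker sum of 1593 CPM, held Gjb2, Gjb6 and Gja1 at once. Gjb2 was at 226 CPM (142 to 342), with 163, 217, 302 and 120 CPM at the barcode numbers, Gjb6 at 535 CPM (399 to 701) and Gja1 at 750 CPM (588 to 944). A Gjb2 UMI was seen in 57.1% of these cells, a Gjb6 UMI in 85.7% and a Gja1 UMI in 66.7%. The astrocyte marker sum was 206 CPM. Slc6a13 and Rbp4 were at 0 there and Ptgds was at 1378 CPM, so this cluster was unlike the VLMC-like cells with Gjb2 in those genes.

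In astrocyte-like cells both neighbours of chromosome 14 were again seen together: 172 of the 176 cells with Gjb2 had Gjb6 too, in a type where 97.4% of cells had Gjb6. Over the 25 clusters, log2(CPM + 10) of Gjb2 and Gjb6 had a Pearson correlation of 0.856, Gja1 and Gjb6 one of 0.698 and Gjb1 and Gjc3 one of 0.697. These are descriptions over clusters of very unequal size and depth.

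Between astrocyte-like and tanycyte-like cells, 4 of the 7 members with at least 50 UMIs differed at least 2-fold in (CPM + 10), against 14.3% of the 13953 genes compared. All 4 were higher in astrocyte-like cells: Gjb6 by 4.66, Gjb2 by 1.82, Gja1 by 1.47 and Gjc3 by 1.22 on the log2 scale, where the median size over all genes was 0.32. Gjc3 reached only 26.6 CPM in astrocyte-like cells.

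The oligodendrocyte lineage carried 3 members in different stages: Gjc3 in all of it with a peak in diffOPC-like cells, Gjb1 in MOL-like cells, and Panx1 in OPC-like and diffOPC-like cells but hardly in MOL-like cells.

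Gjc3 encodes a connexin of oligodendrocytes and Schwann cells. In OPC-like cells it was at 372 CPM (339 to 408), with 441, 341, 370 and 299 CPM at the barcode numbers. In diffOPC-like cells it was at 960 CPM (908 to 1016), with 1025, 871, 999 and 912 CPM, above every value of both other stages. In MOL-like cells it was at 477 CPM (457 to 497), with 507, 509, 510 and 393 CPM. The intervals of MOL-like and OPC-like cells did not overlap, but their values by barcode number did. A Gjc3 UMI was present in 71.7% of OPC-like, 97.1% of diffOPC-like and 94.2% of MOL-like cells at median depths of 4022, 9035.5 and 6133 UMIs, and in 34.5%, 58.0% and 39.1% after thinning. Outside the lineage, the highest named type was astrocyte-like at 26.6 CPM (21.6 to 32.3), and microglia-like cells were at 13.2 CPM (7.83 to 20.9).

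Gjb1 encodes a connexin of myelinating cells that is mutated in an X-linked neuropathy. MOL-like cells had it at 400 CPM (381 to 419), with 395, 415, 385 and 408 CPM at the barcode numbers, and held 91.7% of its 1940 UMIs. A UMI was seen in 85.8% of MOL-like cells, and in 32.2% after thinning. The 2 MOL-like clusters stood apart in Gjb1, while their Gjc3 intervals overlapped. Cluster 12, 60 cells with Trf and Klk6 among its leading genes, was at 990 CPM (907 to 1079), with 866, 1002, 1142 and 1006 CPM, and cluster 11, the other 595 cells, was at 321 CPM (304 to 339), with 324, 330, 316 and 317 CPM. Gjc3 was at 444 CPM (389 to 505) in cluster 12 and 481 CPM (460 to 503) in cluster 11. Median depths were 8076.5 and 5975 UMIs per cell, and the MOL marker sums were 15397 and 16698 CPM.

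Gjb1 did not climb step by step along the lineage. OPC-like cells had it at 34.2 CPM (24.6 to 46.2), with 30.5, 41.1, 35.7 and 30.6 CPM at the barcode numbers, and diffOPC-like cells at 9.37 CPM (4.84 to 16.4), with 8.03, 0, 11.5 and 16.0 CPM. Every OPC-like value lay above every diffOPC-like one. Pars tuberalis-like cells lay between them at 18.3 CPM (8.39 to 34.8) on 9 UMIs, with an interval that overlapped both. The 42 UMIs of OPC-like cells came from 39 of 304 cells (12.8%, 9.28 to 17.1), and 1.23% of microglia-like cells had a Gjb1 UMI at 3.67 CPM (1.19 to 8.56). The share at each barcode number was 13%, 13.6%, 12.7% and 11.8%. After thinning, 2.96% of OPC-like and 0.725% of diffOPC-like cells kept a UMI.

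The MOL markers summed to 136 CPM in OPC-like cells. They summed to 164 CPM in astrocyte-like cells, where Gjb1 was at 5.79 CPM (3.63 to 8.76). Within OPC-like cells that sum was 149 CPM (95.7 to 222) in the 39 cells with Gjb1 and 134 CPM (113 to 158) in the 265 without, and the OPC marker sums were 4965 and 4926 CPM. Gjc3 was at 386 CPM (296 to 495) and 370 CPM (334 to 408) in them. The cells with Gjb1 differed from the other OPC-like cells in neither list beyond counting error, but their MOL marker sum rests on 24 UMIs. The part of MOL RNA in the Gjb1 level of OPC-like cells was not tested.

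Of MOL-like cells, 81.1% (77.9 to 84.0) had a UMI of both Gjb1 and Gjc3, 13.1% of Gjc3 alone and 4.73% of Gjb1 alone. In diffOPC-like cells both were seen in 7.25% (3.53 to 12.9) and Gjc3 alone in 89.9%.

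**Figure D5:**
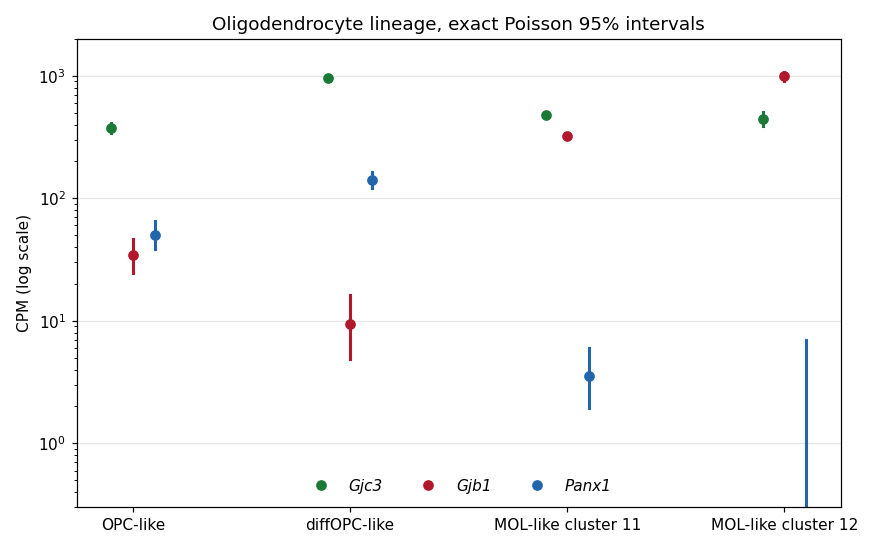
Gjc3, Gjb1 and Panx1 in OPC-like cells, diffOPC-like cells and both MOL-like clusters, as CPM on a log scale with exact Poisson 95% intervals. Intervals that reach below the axis are cut at its lower edge, and Panx1 in cluster 12, at 0, has an interval but no point. Gjc3 peaks in diffOPC-like cells at 960 CPM, Panx1 falls to 3.57 CPM in cluster 11, and Gjb1 is lowest in diffOPC-like cells and reaches 990 CPM in cluster 12.

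Panx1 encodes a channel through which cells release ATP. It was highest in diffOPC-like cells at 141 CPM (121 to 163), with 147, 137, 155 and 119 CPM at the barcode numbers. OPC-like cells were at 50.5 CPM (38.7 to 64.7), with 56.3, 50.6, 40.1 and 49.8 CPM, and neuron-like cells at 26.1 CPM (22.3 to 30.2), with 24.7, 22.8, 25.2 and 29.5 CPM. The 4 values of each of these types lay above all 4 of the next, down to ependymocyte-like cells at 16.1 CPM (9.18 to 26.1), whose interval overlapped that of neuron-like cells. MOL-like cells were at 3.15 CPM (1.72 to 5.28), below microglia-like cells at 7.34 CPM (3.52 to 13.5), with overlapping intervals. No Panx1 UMI was found in 268 VLMC-like cells or in 78 mural-like cells, where 3 counts would be 3.69 and 12.02 CPM and the exact Poisson upper limits are 4.54 and 14.8 CPM.

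Share and level differ for Panx1 because depth differs. A UMI was seen in 48.6% (39.96 to 57.2) of diffOPC-like, 28.5% (24.7 to 32.6) of neuron-like and 19.1% (14.8 to 23.95) of OPC-like cells, whose median depths were 9035.5, 13043 and 4022 UMIs. After thinning, these were 10.9%, 2.44% and 6.58%, which is the order of the levels. In diffOPC-like cells 1 cell held 15 UMIs and 35 of 138 had at least 2. The 67 diffOPC-like cells with a Panx1 UMI had Gjc3 at 1159 CPM (1080 to 1242) and the other 71 at 731 CPM (664 to 804), while their diffOPC marker sums were 7671 CPM (7465 to 7881) and 7456 CPM (7238 to 7679) and their median depths 10102 and 7862 UMIs. Their OPC marker sums were 536 CPM (483 to 594) with Panx1 and 964 CPM (886 to 1046) without, and their MOL marker sums 2372 and 2413 CPM, so the cells also differed in OPC markers, and the part of this in the Gjc3 levels was not tested. The 4 neuron-like clusters were close to each other in Panx1, from 19.3 CPM (11.96 to 29.5) in cluster 17 to 30.2 CPM (18.7 to 46.2) in cluster 23.

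Between MOL-like and OPC-like cells, 2 of the 7 members compared differed at least 2-fold, against 23.5% of all genes. Gjb1 was higher in MOL-like cells by 3.21 on the log2 scale, and Panx1 was lower there, with a difference of -2.20. The median size over all genes was 0.50. Gjc3 differed by 0.35.

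The vascular members rest on 84 endothelial-like and 78 mural-like cells. Gja4 encodes a connexin of arterial vessel walls. It was at 573 CPM (483 to 675) in mural-like cells, the pericytes and muscle cells of vessels, with 508, 498, 746 and 514 CPM at the barcode numbers. A Gja4 UMI was seen in 78.2% (67.4 to 86.8) of the 78 mural-like cells, and in 41.0% after thinning, and these cells held 79.4% of its 180 UMIs. Endothelial-like cells followed at 55.8 CPM (28.8 to 97.5), with 92.3, 50.3, 20.3 and 62.5 CPM, and a UMI in 8.33% (3.42 to 16.4) of 84 cells. VLMC-like cells were at 11.1 CPM (5.07 to 21.0) on 9 UMIs. No Gja4 UMI was found in 1384 astrocyte-like or 405 microglia-like cells, where 3 counts would be 0.789 and 2.20 CPM and the exact Poisson upper limits are 0.970 and 2.71 CPM.

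Other connexins of vessel walls were distributed differently. Gja1 was higher in endothelial-like than in mural-like cells, at 237 CPM against 28.0 CPM (11.3 to 57.8). Gjc1, a further connexin of vessel walls and no member, was at 200 CPM (149 to 264) in mural-like and 79.1 CPM (46.1 to 127) in endothelial-like cells. Between endothelial-like and mural-like cells, 2 of the 7 members compared differed at least 2-fold, against 20.8% of all genes: Gja4 with a log2 difference, endothelial minus mural, of -3.15 and Gja1 with one of 2.70. The median size over all genes was 0.49.

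Gja5, the connexin of arterial endothelium and of the heart's conducting cells, had 7 UMIs in 7 cells of the whole matrix. Of these, 3 were in astrocyte-like, 2 in tanycyte-like, 1 in neuron-like and 1 in endothelial-like cells, and none in mural-like cells. The 1 UMI in endothelial-like cells was a level of 4.65 CPM (0.118 to 25.9), and no order of types was read from it. Its presence could not be told from background.

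A list of 6 arterial endothelial genes was set beside the vascular members. Sox17, a transcription factor gene of arterial endothelium, was at 567 CPM (471 to 677) in endothelial-like cells, and Bmx, Gkn3 and Sema3g were at 32.6, 32.6 and 27.9 CPM there on 7, 7 and 6 UMIs. Of the 3 list genes with at least 50 UMIs, Sox17 was at least 4-fold above its next cell type, and Efnb2 and Hey1 were not, against 5.4% of all genes compared. A Gja4 UMI was seen in 6 of the 62 endothelial-like cells with a UMI of the list (9.68%, 3.63 to 19.9) and in 1 of the 22 without (4.55%, 0.115 to 22.8), so no difference was detectable.

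Members were then ranked by how far their highest cell type stood above the next. With 10 CPM added to each level, Gjb1 was 9.27-fold, Gja4 8.85-fold and Gjb6 5.10-fold above the next type. Panx1 was at 2.49-fold, Gjb2 2.45-fold, Gja1 2.08-fold and Gjc3 1.99-fold. So 3 of the 7 members compared were at least 4-fold above the next type, against 5.4% of all 13953 genes compared. Gja5 had too few UMIs to be compared.

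For each member with at least 100 UMIs, the 5 genes most like it over the 25 clusters were taken from 12662 genes, by Pearson correlation of log2(CPM + 10). They are descriptions over clusters that share libraries. Gja1 was nearest to Prodh, which encodes proline dehydrogenase (r = 0.953), then Mgst1, Nudt9, Tom1l1 and Mt1. Gjb6 was nearest to Slc26a6 (0.902), Entpd2 (0.901), F3 (0.894), Papss2 and Proca1, and F3, the tissue factor gene, was also among those of Gjb2 (0.832), behind Scara3 (0.895) and Wnt6 (0.881), ahead of Aox1 and Boc.

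Gjc3 was nearest to Gal3st1 (0.956), Fa2h (0.932) and Ugt8a (0.9298), which encode enzymes of myelin sulfatide and galactolipid synthesis, then Dusp15 and Gm9945. Gjb1 was nearest to Nipal4 (0.948), Cyp2j12 (0.944), Ermn, a myelin cytoskeleton gene and one of the MOL markers (0.931), Prima1 and Plekhh1. Gja4 was nearest to Aspn (0.973), Higd1b (0.972), Gm13861, Kcnj8 (0.961) and Rgs5 (0.960), of which Higd1b, Kcnj8 and Rgs5 are in the mural marker list that named its cells. Panx1 had lower values: Slc27a3 (0.869), Opcml (0.847), Tmem108 (0.847), Dscam (0.841) and Camsap2 (0.840).

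Genes that act with these channels were taken as 2 lists. Of the 10 gap junction partners, all compared, none was at least 4-fold above its next cell type, against 5.4% of all genes compared. Hepacam and Mlc1, which encode membrane partners that hold astrocyte junctions in place, were at 382 CPM (362 to 402) and 996 CPM (965 to 1028) in astrocyte-like cells and at 306 and 986 CPM in tanycyte-like cells. Mlc1 was thus near equal in both types and Hepacam was lower in tanycyte-like cells, while Gjb6 stood at 1611 and 54.3 CPM. Tjp1, the scaffold that binds the tail of several connexins, was highest in endothelial-like cells at 265 CPM (201 to 343), followed by mural-like cells at 80.1 CPM. Cdh2, an adhesion gene, was highest in tanycyte-like cells at 323 CPM (309 to 337), and Dbn1 in neuron-like cells at 126 CPM (118 to 135). Src, at 52.1 CPM in OPC-like cells, Csnk1d, at 83.7 CPM in endothelial-like cells, and Cnst, at 36.7 CPM in pars tuberalis-like cells, were each within 2-fold of the next type. Nov (Ccn3 in the matrix) had 141 of its 159 UMIs in the unnamed cluster 24, at 1450 CPM (1220 to 1710), and was at 18.6 CPM (5.07 to 47.6) in endothelial-like cells, the highest of the named types.

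Of the 12 genes of extracellular ATP, 11 were compared and 4 were at least 4-fold above the next type, against 5.4% of all genes compared. P2ry12, an ADP receptor of microglia, was at 2253 CPM (2174 to 2334) in microglia-like cells, and P2ry13 was at 449 CPM (414 to 486) there. P2ry1, another ADP receptor, had its peak in VLMC-like cells, at 175 CPM (147 to 206), and so was Enpp1, which splits ATP, at 123 CPM (100 to 150). Entpd2, which degrades ATP, was at 373 CPM (354 to 393) in astrocyte-like and 314 CPM in VLMC-like cells, the types with the highest Gjb6. Adora1, an adenosine receptor, was highest in OPC-like cells at 155 CPM (133 to 178). The ATP receptors P2rx4 and P2rx7 were highest in macrophage-like cells, at 169 CPM (136 to 207) and 115 CPM (88.7 to 148), ahead of microglia-like cells, where Entpd1 was highest at 124 CPM (106 to 144). Adora2b was highest in astrocyte-like cells at 84.7 CPM (75.7 to 94.5), and Nt5e in VLMC-like cells at 18.5 CPM (10.3 to 30.5). Adora2a, not compared at 40 UMIs, was at 84.1 CPM (52.1 to 129) in mural-like cells.

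Other family genes were sparse. Of the genes named here, Gjc1 had 125, Panx2 97 and Gjd2 32 UMIs in all cells. Panx2 was highest in neuron-like cells at 9.98 CPM (7.73 to 12.7), which held 69.1% of its UMIs. Gjd2, the neuronal connexin, had 81.3% of its UMIs in neuron-like cells at 3.87 CPM (2.53 to 5.67), and 4 UMIs in pars tuberalis-like cells at 8.15 CPM (2.22 to 20.9). Gjb5 had 2 UMIs and Gja6 had 1. Gja3, Gja10, Gjd3, Gjd4, Gje1 and Panx3 had none among 29288898 UMIs.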

How the data were processed

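Per the labels and the methods, the authors aligned the reads to mm10 with Cell Ranger 2.0 and deposited 1 matrix of UMI counts, not normalized. In it, 27645 of 27998 gene IDs matched GENCODE vM21. The 32 sample records are lanes and index parts of 4 libraries. The members and all lists were chosen with earlier results of these data known, and so were the thresholds for naming clusters.

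With scanpy 1.11.5, counts were scaled per cell and logged, and 2000 variable genes outside the family gave 30 principal components, 15 neighbours and Leiden clusters at resolution 1. Red blood cells, 3 in number with 10% or more of their UMIs from haemoglobin genes, stayed out. A cluster was named if its best marker list scored at least 0.3, at least 1.5 times the next list, with at least 3 markers 4-fold above the median cluster. Of all cells, 50 (0.836%) were called doublets and kept. Ratios used CPM + 10 and genes with at least 50 UMIs. Named genes were the members, their family, 3 lists (gap junction partners, extracellular ATP, arterial endothelium) and the 5 genes most like each member; Gjb2 companions in VLMC-like cells, and each split of a type by a member's UMIs, were added after values were seen. The ratio step was tested on simulated data. Some genes of these lists and of the family are not reported here.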

Additional observations from a re-analysis of the deposited data

How the results depend on the processing

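Levels in the named type of each member were recomputed with Leiden resolutions 0.5 and 2, K-means, family genes kept, doublets left out, a filter on cells, thinning and each barcode number left out. Of these values, 94 stayed within the counting interval (a count, within 1.5 times) and 5 did not. Thinning to 1000 UMIs, which weights cells equally, gave Gjb6 1668 CPM in astrocyte-like and Panx1 116 CPM in diffOPC-like cells, and left Gja5 at 0 in endothelial-like cells. Without 1 barcode number, Gja5 ranged from 0 (without number 4) to 7.38 CPM, since it rests on 1 UMI. K-means with 9 clusters gave 5 members at least 4-fold above the next type (with Gja1 and Gjc3), against 6.29% of all genes. It left unnamed the clusters whose best and next lists were tanycyte and ependymocyte, OPC and diffOPC, neuron and pars tuberalis, or microglia and macrophage. Unnamed clusters were left out of the ratio. So the types next to astrocyte-like cells in Gja1, and the other types of the lineage in Gjc3, were missing from it. The 5 therefore do not show a narrower range of types, and Gjc3 and Panx1 had no value in diffOPC-like cells. The count of members stayed at 3 (Gja4, Gjb1 and Gjb6) under the other alternatives. No paired analysis was possible because the labels tie no barcode number to a sample. Rare types limit the depth: in 84 endothelial-like cells the 3 counts that a count of 0 is taken to allow are 13.95 CPM. Settings chosen after the data were seen left out cluster 14 or the called doublets and lowered Gjb6 from 54.3 to 25.3 CPM in tanycyte-like and from 46.4 to 25.9 CPM in OPC-like cells, and Gja1 from 616 to 396 CPM in tanycyte-like cells.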
